A study of Saccharomyces cerevisiae with 8 samples.

Results

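The genes described here are those of sulfate uptake, sulfate assimilation and cysteine synthesis in *S. cerevisiae*. They are 10 genes named in advance by their symbols, *SUL1*, *SUL2*, *MET3*, *MET14*, *MET16*, *MET10*, *MET17*, *CYS3*, *CYS4* and *STR3*, and all 10 were found among the 5774 genes of the table. *SUL1* was included because of its lower mRNA in *pbp1Δ* cells in these same data, so that its own values are given as a description without a test. The question was whether the other 9 genes share the pattern of *SUL1*. All libraries came from the prototrophic CEN.PK strain. WT cells were listed as MATa, and *pbp1Δ* cells carried a hygromycin cassette in place of *PBP1*, the yeast ortholog of human ataxin-2. Each genotype was sampled in log phase in YPD, the glucose medium, and 3 h after the switch to YPL, the lactate medium. Poly-A RNA-seq was performed on 2 biological replicates for each of the 4 groups. YPL also held less yeast extract than YPD, so that the carbon source and the yeast extract cannot be told apart in a comparison of media.

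Depth was inferred from the step between the values of a library, and came to 33651287 to 39476235 reads over the table. *PBP1* had 11112 to 12686 normalized counts in WT libraries and 0 to 0.928 in *pbp1Δ* libraries. Here a normalized count is the number of reads on a gene after division by a factor for its library. The genotypes also differed in mating type markers. The 7 a-specific genes summed to 14330 to 86076 in WT and 1574 to 2197 in *pbp1Δ* libraries, and the 4 α-specific genes to 1680 to 2215 in WT and 41797 to 160790 in *pbp1Δ* libraries. No gene of either list was at 0 in any library. The deletion and the mating type cannot be told apart in any comparison of the genotypes below. The 5 genes of lactate use and glucose derepression, among them *JEN1* and *ADH2*, summed to 3200 to 3453 in YPD and 389769 to 509333 in YPL libraries. Values are means over a culture, so that fewer cells with an mRNA and less of it per cell cannot be told apart. Replicates lay further apart in YPD, where the SD of their log2 difference over the 5759 tested genes was 0.58 in WT and 0.53 in *pbp1Δ* cells, than in YPL, where it was 0.22 and 0.31.

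Yeast cells take up sulfate through the permeases Sul1 and Sul2. ATP sulfurylase (Met3) and APS kinase (Met14) activate it, PAPS reductase (Met16) turns it into sulfite, and sulfite reductase (Met10 with Met5) into sulfide. Met17 joins sulfide to O-acetylhomoserine to give homocysteine, from which methionine is made. Cys4 and Cys3 carry sulfur from homocysteine to cysteine through cystathionine, and Str3 with Str2 carries it back. Many of these genes are transcribed by the activator Met4, which has no DNA-binding activity of its own and is brought to promoters by Cbf1 or by Met31 and Met32. The ubiquitin ligase subunit Met30 holds Met4 in check when cells have ample organic sulfur.

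In the S288C reference genome, the promoters of the 10 genes differed in the sites of these factors. Their sequences in CEN.PK, the strain of the libraries, were not examined. The windows from 250 bases before to 50 bases after the coding start were read from the R64 genome and searched on both strands for CACGTG, the Cbf1 site, and for CTGTGG, the core of the Met31 and Met32 site. CACGTG reads the same on both strands, CTGTGG reads CCACAG on the other, and no site of either overlapped a site of the other. CACGTG was found in 4 of the 10 promoters (*MET14*, *MET16*, *MET10* and *CYS3*) and in 2.93% of 5768 promoters. CTGTGG was found in 2 of 10 (*MET10* and *CYS4*) and in 6.92% of all promoters. Only *MET10* held both among the 10, as did 0.277% of all promoters. The promoters of *SUL1*, *SUL2*, *MET3*, *MET17* and *STR3* held neither. That of *SUL1* is shown beside those of *MET10* and *MET14*, with the searched motifs in capitals.
SUL1, chrII:788985-789284, forward strand: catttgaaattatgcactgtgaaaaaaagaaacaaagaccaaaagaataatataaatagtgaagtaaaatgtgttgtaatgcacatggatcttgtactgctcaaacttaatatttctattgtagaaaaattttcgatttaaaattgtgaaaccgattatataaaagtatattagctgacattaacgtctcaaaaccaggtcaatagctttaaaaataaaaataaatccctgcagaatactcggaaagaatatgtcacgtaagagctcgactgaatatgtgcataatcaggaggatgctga
MET10, chrVI:213062-213361, forward strand: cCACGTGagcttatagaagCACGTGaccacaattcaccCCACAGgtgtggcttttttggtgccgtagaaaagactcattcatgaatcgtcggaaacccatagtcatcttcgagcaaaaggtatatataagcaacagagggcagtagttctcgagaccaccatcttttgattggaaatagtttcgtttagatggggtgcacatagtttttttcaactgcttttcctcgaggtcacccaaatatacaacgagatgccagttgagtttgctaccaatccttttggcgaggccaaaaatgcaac
MET14, chrXI:439336-439635, reverse strand: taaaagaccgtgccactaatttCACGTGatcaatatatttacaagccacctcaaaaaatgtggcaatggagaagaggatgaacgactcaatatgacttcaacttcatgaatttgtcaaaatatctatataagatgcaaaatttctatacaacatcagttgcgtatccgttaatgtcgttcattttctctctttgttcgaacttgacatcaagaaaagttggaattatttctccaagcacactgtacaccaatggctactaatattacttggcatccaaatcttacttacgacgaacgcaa

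A window of 600 bases before the coding start, chosen after the values had been seen, held CACGTG in 8 of the 10 genes and in 7.21% of all genes. *SUL1* and *STR3* were the genes without it. CTGTGG was in 7 of 10 (all but *MET14*, *MET16* and *CYS3*) and in 16.9% of all genes. In this window *SUL1* had a lone CTGTGG core, on the opposite strand and 413 bases before its start, whereas *SUL2*, which encodes the other permease, had 2 CACGTG sites and 2 CTGTGG cores. The sites of both genes and the closest of *MET3*, *MET17*, *MET16* and *CYS3* are shown. Each line has 1 site in capitals in its middle, and a neighbouring site that falls in the same stretch is left in lower case.
SUL1, chrII:788805-788844, forward strand: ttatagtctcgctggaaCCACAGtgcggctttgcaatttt
SUL2, chrXII:323193-323232, forward strand: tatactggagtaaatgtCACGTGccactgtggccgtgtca
SUL2, chrXII:323202-323241, forward strand: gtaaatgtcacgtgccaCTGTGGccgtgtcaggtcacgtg
SUL2, chrXII:323219-323258, forward strand: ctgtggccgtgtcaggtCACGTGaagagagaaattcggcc
SUL2, chrXII:323240-323279, forward strand: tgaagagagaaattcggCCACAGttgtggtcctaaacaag
MET3, chrX:455969-456008, forward strand: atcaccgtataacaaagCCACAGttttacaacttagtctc
MET17, chrXII:732251-732290, forward strand: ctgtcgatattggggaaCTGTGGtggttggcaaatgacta
MET16, chrXVI:877788-877827, reverse strand: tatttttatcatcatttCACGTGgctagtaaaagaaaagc
CYS3, chrI:130566-130605, forward strand: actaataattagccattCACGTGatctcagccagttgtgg

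**Figure D1:**
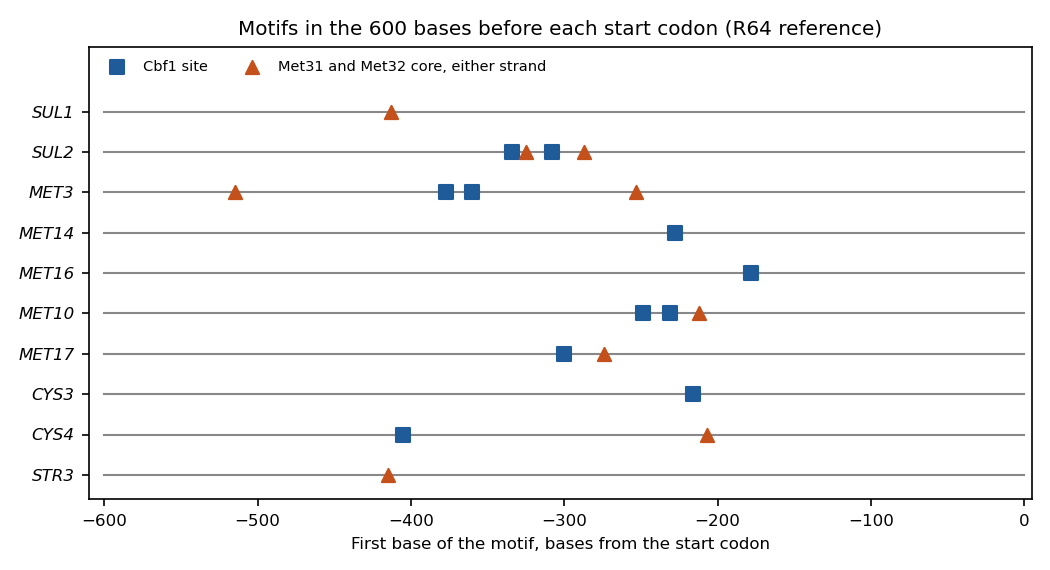
Positions of the Cbf1 site CACGTG (squares) and of the Met31 and Met32 core CTGTGG on either strand (triangles) in the 600 bases before the coding start of the 10 genes, drawn to scale in bases from the start. *SUL1* has a lone CTGTGG core and no CACGTG, *STR3* likewise, and the other 8 genes have at least 1 CACGTG.

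The genes lay at levels that differed by over an order of magnitude. Per kb of coding length, WT cells in YPD had most mRNA of *CYS4*, at 30993 ± 1647 normalized counts per kb (SD, n = 2), followed by *CYS3* at 17292 ± 618 and *MET17* at 10520 ± 175. *SUL1* was the lowest of the 10, at 371 ± 37.5 per kb. Of neighbours in this order, *MET16* with *STR3* and *MET10* with *SUL2* overlapped in their libraries, and the other pairs did not. In YPL, *SUL1* was the third in WT cells at 3196 ± 19.6 per kb, after *CYS4* and *CYS3*. In *pbp1Δ* cells in YPL it was the fifth at 908 ± 45.6 per kb, below *MET14* and *MET17*.

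**Figure D2:**
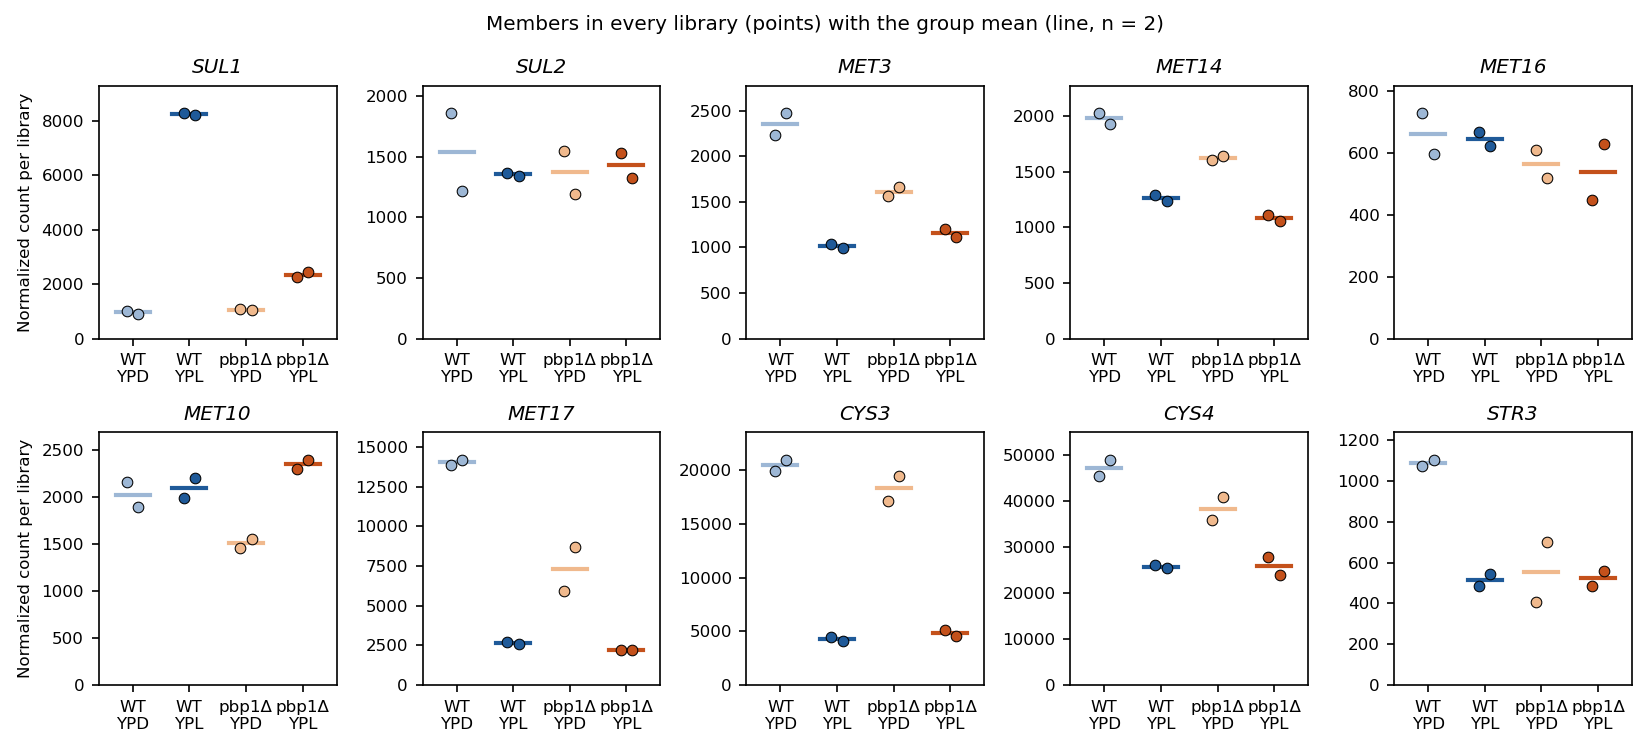
Normalized counts of the 10 genes in each of the 8 libraries on linear axes that start at 0, with each point a library and each line the mean of the 2 libraries of a group. The WT libraries in YPL lie highest for *SUL1*, at 8209 and 8281, while *MET17* and *CYS3* are lower in YPL than in YPD in both genotypes.

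*SUL1* (YBR294W, chromosome II, 789235 to 791814) had 1025 and 889 normalized counts in WT cells in YPD and 8281 and 8209 in YPL. In *pbp1Δ* cells it had 1071 and 1030 in YPD and 2260 and 2427 in YPL. The libraries of the genotypes lay close together in YPD, and in YPL both *pbp1Δ* libraries lay below both WT libraries. The mean in YPL was 8.62 times that in YPD in WT cells and 2.23 times in *pbp1Δ* cells. In YPL the *pbp1Δ* mean was 28.4% of the WT mean. On the log2 scale the genotype difference was 0.14 in YPD (SE 0.11) and -1.82 in YPL (SE 0.11), the 19th lowest of 5759 genes. The gene pair beside *SUL1* on the chromosome did not show this. *VBA2*, a vacuolar permease gene to its left, had 1994 and 2075 normalized counts in WT and 2536 and 2610 in *pbp1Δ* cells in YPL, and *PCA1*, a metal-exporting ATPase gene to its right, had 1784 and 1702 in WT and 2400 and 2196 in *pbp1Δ* cells.

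*SUL2* (YLR092W, chromosome XII, 323544 to 326225) encodes the other sulfate permease. It had 1860 and 1217 normalized counts in WT and 1549 and 1191 in *pbp1Δ* cells in YPD. In YPL it had 1368 and 1345 in WT and 1533 and 1322 in *pbp1Δ* cells. Libraries of all 4 groups overlapped, and those with replicate number 1 in YPD were high in both genotypes. The log2 difference between genotypes was -0.15 in YPD (95% interval -0.70 to 0.40, adjusted p = 1.00) and 0.07 in YPL (-0.48 to 0.62, adjusted p = 0.915). *SUL1*, which was chosen for its genotype change, differed by -1.82 in YPL, and *SUL2* was not tested against it. The coding sequences of *SUL1* and *SUL2* share an exact run of at most 24 bases, so that reads longer than this can be assigned to either gene.

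The make-up of the permease mRNAs differed between the groups. Per kb, *SUL1* made up 36.4% and 43.1% of the sum of both in WT libraries in YPD and 86.3% and 86.4% in YPL. In *pbp1Δ* libraries it made up 41.8% and 47.3% in YPD and 60.5% and 65.6% in YPL. The sum of both in YPL was 3720 and 3683 normalized counts per kb in WT and 1448 and 1433 in *pbp1Δ* libraries.

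The activating enzymes *MET3* and *MET14* were lower in YPL than in YPD, the opposite direction to *SUL1*. *MET3* (YJR010W, chromosome X, 456239 to 457774) had 2229 and 2475 normalized counts in WT cells in YPD and 1037 and 993 in YPL. In *pbp1Δ* cells it had 1563 and 1660 in YPD and 1203 and 1114 in YPL. No library in YPL reached those in YPD in either genotype. The log2 change between media was -1.21 in WT cells (SE 0.11, adjusted p = 2.7e-04). In *pbp1Δ* cells it was -0.48 (SE 0.11, adjusted p = 0.013), which passed the p threshold but not the required absolute log2 change of 0.58. With each library centred on its median it was -0.61 and passed both.

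*MET14* (YKL001C, chromosome XI, 438777 to 439385) had 2028 and 1932 normalized counts in WT cells in YPD and 1292 and 1236 in YPL. The *pbp1Δ* libraries had 1607 and 1638 in YPD and 1114 and 1055 in YPL. In each medium both *pbp1Δ* libraries lay below both WT libraries. *MET14* fell in the switch to YPL by 0.65 on the log2 scale in WT cells (adjusted p = 0.0023) and by 0.58 in *pbp1Δ* cells (adjusted p = 0.0039). The latter sits at the fold threshold, and missed it without *pbp1Δ* YPD replicate 2 (-0.57), without *pbp1Δ* YPL replicate 2 (-0.54) or with a pseudocount of 8 (-0.578).

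Of the reducing enzymes, *MET10* rose in YPL in *pbp1Δ* cells and *MET16* was not called. *MET16* (YPR167C, chromosome XVI, 876847 to 877632) had 729 and 596 normalized counts in WT cells in YPD, 669 and 622 in YPL, and 610 and 518, then 449 and 628 in *pbp1Δ* cells. The libraries of the media overlapped in both genotypes, and none of its 4 pairwise tests was called. *MET10* (YFR030W, chromosome VI, 213312 to 216419) had 2160 and 1892 in WT cells in YPD and 1992 and 2205 in YPL. In *pbp1Δ* cells it had 1461 and 1560 in YPD and 2298 and 2401 in YPL. In *pbp1Δ* cells both YPL libraries lay above both YPD libraries, while in WT cells the media overlapped. *MET10* rose by 0.64 on the log2 scale in *pbp1Δ* cells (SE 0.11, adjusted p = 0.0049), and by 0.50, below the fold threshold, with each library centred on its median. The change in WT cells was 0.05 (95% interval -0.22 to 0.33), and the difference between these changes, 0.59, did not pass the test over all genes (adjusted p = 0.568).

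*MET17* and *CYS3* had the largest changes between media of the other 9 genes, again opposite to *SUL1*. *MET17* (YLR303W, chromosome XII, 732542 to 733876) had 13880 and 14209 normalized counts in WT cells in YPD and 2701 and 2604 in YPL. In *pbp1Δ* cells it had 5899 and 8726 in YPD and 2209 and 2225 in YPL. Every YPL library lay below every YPD library of its genotype, and the *pbp1Δ* replicates in YPD lay far apart. The mean was 5.29 times higher in YPD than in YPL in WT cells (adjusted p = 1.3e-04) and 3.30 times in *pbp1Δ* cells (adjusted p = 5.2e-04). *MET17* overlaps an open reading frame of the opposite strand, YLR302C, and whether the counting used the strand is not given in the sources used here.

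*CYS3* (YAL012W, chromosome I, 130799 to 131983) had 19973 and 21008 normalized counts in WT cells in YPD and 4500 and 4113 in YPL, and 17156 and 19479, then 5173 and 4559 in *pbp1Δ* cells. It fell by 2.25 on the log2 scale in WT cells (SE 0.11, adjusted p = 4.0e-05) and by 1.91 in *pbp1Δ* cells (adjusted p = 6.3e-05). *CYS4* (YGR155W, chromosome VII, 798543 to 800066), the partner enzyme, had 45458 and 49007 in WT cells in YPD and 26095 and 25374 in YPL, and 35830 and 40892, then 27723 and 24015 in *pbp1Δ* cells. The media did not overlap in either genotype. *CYS4* fell by 0.88 on the log2 scale in WT cells (adjusted p = 0.0012). Its log2 change in *pbp1Δ* cells was -0.57 (adjusted p = 0.0077), short of the fold threshold. The change passed that threshold with median centring (-0.70) and with upper quartile scaling (-0.586). It also passed without either *pbp1Δ* library with replicate number 1 (-0.66 without the YPD library, -0.67 without the YPL library).

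*STR3* (YGL184C, chromosome VII, 154615 to 156012), whose enzyme works in the direction of homocysteine, had 1075 and 1105 normalized counts in WT cells in YPD and 487 and 544 in YPL. In *pbp1Δ* cells it had 409 and 703 in YPD and 486 and 561 in YPL. The WT libraries in YPD stood above all other libraries. *STR3* fell by 1.08 on the log2 scale in WT cells (SE 0.25, adjusted p = 0.014), a call that was lost without WT YPL replicate 1 (adjusted p = 0.079) or WT YPL replicate 2 (adjusted p = 0.059). In *pbp1Δ* cells its change was -0.04 (95% interval -0.65 to 0.57).

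**Figure D3:**
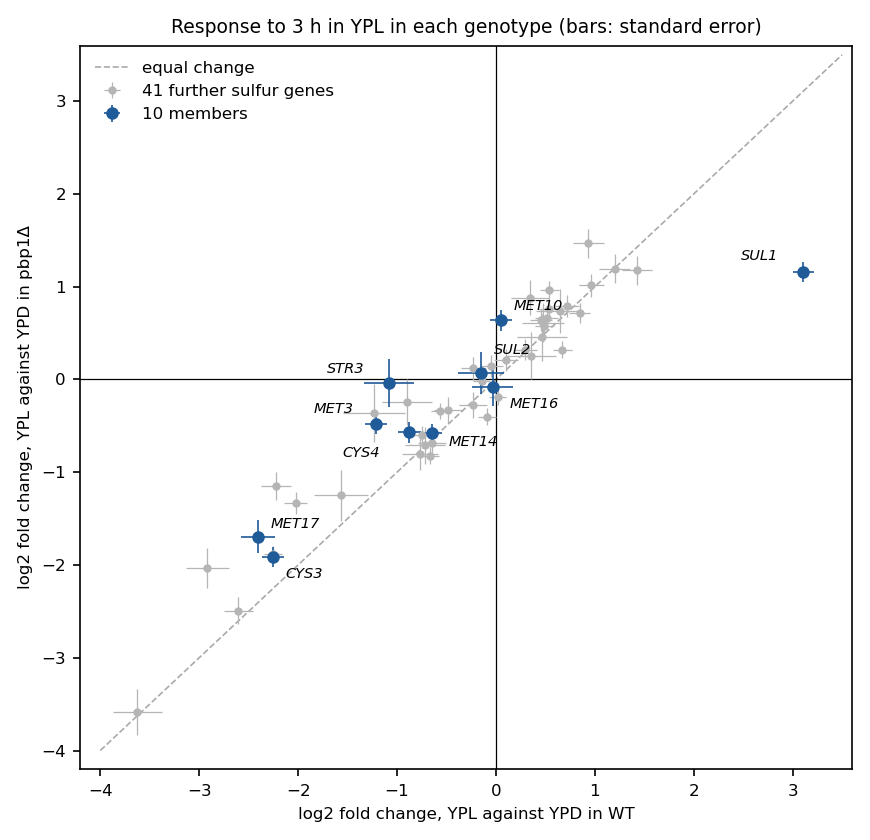
Log2 change from YPD to YPL in WT cells (x axis) and in *pbp1Δ* cells (y axis) for the 10 genes (blue) and 41 further sulfur genes (grey), with bars of 1 standard error and a dashed line of equal change. *SUL1* lies alone at the right, at 3.11 in WT and 1.16 in *pbp1Δ* cells, and *MET17* and *CYS3* lie lowest of the 10 at the lower left.

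In the comparison of media, 6 of the 9 genes other than *SUL1* were called lower and 0 higher in YPL in WT cells, where 15.7% of the 5759 tested genes were called lower and 35.0% in either direction. The median log2 change of the 9 genes was -0.88, and that of all tested genes was -0.0012. In *pbp1Δ* cells 3 of the 9 genes were called lower and 1 higher, where 33.3% of all genes were called, 15.1% lower and 18.1% higher, with a median of -0.48 for the 9 genes and 0.01 for all tested genes. The libraries of the media did not overlap for 6 genes lower and 0 higher in WT cells, beside 38.0% and 38.5% of all genes, and for 5 lower and 1 higher in *pbp1Δ* cells, beside 35.9% and 37.6%. Centring each library on its median moved the median of all genes to -0.13 in WT and -0.12 in *pbp1Δ* cells, and the share of higher among called genes from 55.0% to 44.6% and from 54.5% to 41.7%. With that centring the 9 genes had medians of -1.001 and -0.61. *SUL1* had changes of 3.11 and 1.16, which were 2.98 and 1.02 after centring. The 5 comparisons share libraries, so that the changes in the media and those between genotypes are not independent of each other.

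The lower *SUL1* in *pbp1Δ* cells in YPL was not shared by the other 9 genes. In YPL 0 of the 9 were called in limma, where 4.69% of all tested genes were called and 4.17% were called lower. At that share, 0 calls among 9 genes say little by themselves. An unadjusted p under 0.05 was found for 0 of the 9 and for 1026 of the 5759 tested genes. The log2 differences ranged from -0.28 in *MET16* to 0.19 in *MET3*, with a median of 0.02, and 3 of the 9 were below 0. The lowest bound among their 95% intervals was -0.78, in *MET16*. *SUL1* was chosen for its low value here, so that the 9 genes were not tested against it. The WT and *pbp1Δ* libraries were apart for 2 genes that were lower (*MET14* and *MET17*) and 3 that were higher (*CYS3*, *MET10* and *MET3*), as they were for 30.1% and 27.5% of all genes. Without WT YPL replicate 2 the number of genes called in YPL fell from 270 to 61, and without WT YPL replicate 1 or *pbp1Δ* YPL replicate 1 to 89 or 118. Among the 9 genes 0 were called whichever of the 8 libraries was left out.

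**Figure D4:**
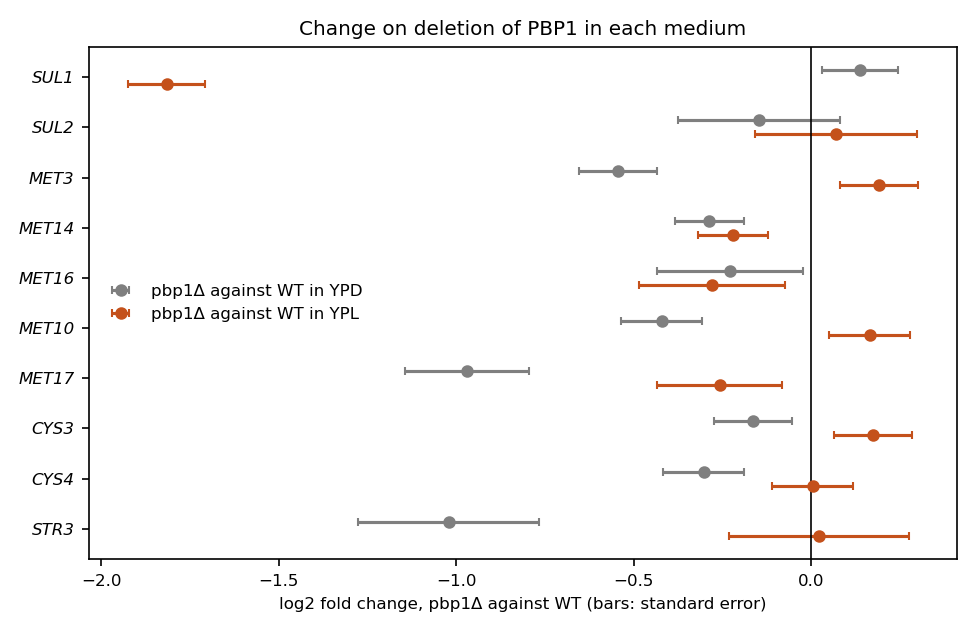
Log2 difference of *pbp1Δ* from WT in YPD and in YPL for the 10 genes, with bars of 1 standard error. In YPL *SUL1* lies at -1.82 while the other 9 genes lie between -0.28 and 0.19, and in YPD the 9 genes lie between -1.02 and -0.15.

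In YPD the other 9 genes, and not *SUL1*, had lower values in *pbp1Δ* cells, without passing the test in the main fit. *SUL1* differed by 0.14 on the log2 scale, and all other 9 genes were below 0, with a median of -0.30 beside -0.02 for all tested genes. None of the 9 was called in limma, where 0.972% of all tested genes were called (0.868% lower and 0.104% higher). An unadjusted p under 0.05 was found for 6 of the 9 and for 472 of the 5759 tested genes. The *pbp1Δ* libraries lay below both WT libraries for 7 of the 9 genes, all but *SUL2* and *MET16*, as for 17.8% of all genes. The lowest differences were -1.02 in *STR3* (SE 0.25, adjusted p = 0.195), -0.97 in *MET17* (SE 0.18, adjusted p = 0.081) and -0.54 in *MET3* (SE 0.11, adjusted p = 0.10). With a replicate block within each medium, limma called *MET17* (adjusted p = 6.1e-04) and *STR3* (adjusted p = 0.0049), among 214 of all tested genes. Same-numbered libraries of the genotypes deviated together in YPD (correlation 0.85), but the labels do not say that the numbers pair them. *MET17* was called without *pbp1Δ* YPD replicate 2, the higher of its *pbp1Δ* libraries, at -1.25 (adjusted p = 0.015). The direction of *SUL2* was lost without WT YPD replicate 1 (0.16) or *pbp1Δ* YPD replicate 2 (0.04). Leaving out any library lowered the number of genes called in YPD from 56 to between 15 and 19.

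The interaction, which is the genotype difference in YPL minus that in YPD, was -1.95 for *SUL1* on the log2 scale (SE 0.15), the 10th lowest of 5759 genes. For the other 9 it ranged from -0.05 in *MET16* to 1.04 in *STR3*, with 8 above 0 and a median of 0.34 beside 0.01 for all tested genes. None of the 9 was called in limma, where 4 genes or 0.0695% of all tested genes were called (0.0521% below and 0.0174% above 0). The unadjusted p was under 0.05 for 4 of the 9 (*MET3*, *MET10*, *MET17* and *STR3*) and for 404 of the 5759 tested genes. The largest interaction was that of *STR3*, with an SE of 0.36 and an adjusted p of 0.648. With a replicate block within each medium, limma called *MET3*, *MET10*, *MET17* and *STR3* (adjusted p = 0.015, 0.039, 0.032 and 0.035), among 360 of all tested genes. The replicate numbers were not taken to pair the libraries. The sign for *MET16* turned without any of 4 of the libraries, to at most 0.19 without *pbp1Δ* YPL replicate 1.

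The wider sulfur network was called between genotypes in YPL at about the share of all genes. Of 43 further genes listed for the reduction of sulfate, methionine and S-adenosylmethionine synthesis, uptake and use of organic sulfur, glutathione and the regulators, 41 were in the table and *MET28* and *SEO1* were not analysed here. In YPL 2 of the 41 were called lower and 0 higher in *pbp1Δ* cells, beside the 4.17% and 0.521% of all genes. In YPD 0 were called in limma, beside 0.972% of all genes, and the interaction called 0. An unadjusted p under 0.05 was found for 9 of the 41 in YPD and 8 in the interaction, beside 472 and 404 of the 5759 tested genes. The pair lower in YPL was *HOM2*, the aspartate semialdehyde dehydrogenase gene of the homoserine branch, and *MET22*, a phosphatase that clears the byproduct of PAPS reduction. *HOM2* had 17946 and 18335 normalized counts in WT and 10268 and 11076 in *pbp1Δ* cells, which is -0.77 on the log2 scale (adjusted p = 0.0066). *MET22* had 4871 and 4876 in WT and 3170 and 3189 in *pbp1Δ* cells, at -0.62 (adjusted p = 0.012). The number called was 1 after median centring, 1 with upper quartile scaling, 0 without WT YPL replicate 1, WT YPL replicate 2 or *pbp1Δ* YPL replicate 1, and 1 without *pbp1Δ* YPL replicate 2.

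In the switch to YPL, 14 of the 41 genes fell and 7 rose in WT cells, beside 15.7% and 19.3% of all genes. Genes that take homocysteine on to methionine and S-adenosylmethionine were among those that fell. *MET6*, methionine synthase, had 18381 and 23015 normalized counts in WT cells in YPD and 2698 and 2743 in YPL, a log2 change of -2.92 (adjusted p = 1.4e-04). The S-adenosylmethionine synthetase genes *SAM1* (-3.63) and *SAM2* (-2.25) fell too, although they share an exact run of 59 bases that could leave reads out of the count. Of the 8 genes for uptake of organic sulfur compounds, 5 fell, among them those of the methionine permease Mup3 (-2.60), the glutathione transporter Opt1 (-2.22) and the S-adenosylmethionine permease Sam3 (-2.02). *SOA1*, a transporter gene for inorganic and sulfonate sulfur other than sulfate, rose by 1.20 and the amino acid permease gene *AGP3* by 0.93. *STR2*, which acts just before *STR3*, rose by 1.43, and the sulfite pump gene *SSU1* by 0.85.

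Of the regulators of the pathway, *MET4* rose in YPL by 0.72 in WT cells and 0.79 in *pbp1Δ* cells on the log2 scale (adjusted p = 0.0032 and 0.0023). *MET31* was called in the opposite direction and fell by 0.77 in WT cells and by 0.80 in *pbp1Δ* cells (adjusted p = 0.014 and 0.012). *MET32* and *CBF1* were not called in either genotype, with changes in WT cells of -0.24 and 0.36, and *MET30* was called in *pbp1Δ* cells (0.76) but fell short of the fold threshold in WT cells (0.54). *MET2*, which makes the O-acetylhomoserine used by Met17, had log2 changes of 0.51 in WT and 0.66 in *pbp1Δ* cells, the latter called. *MET5*, which encodes the partner of Met10, had changes of -0.23 and 0.12 and was not called. Between genotypes in YPL none of *MET4*, *MET32*, *CBF1*, *MET30*, *MET2* and *MET5* was called, and their differences lay between -0.23 in *MET5* and 0.22 in *MET30*. *MET6* differed by 0.49 (adjusted p = 0.308). In *pbp1Δ* cells 12 of the 41 genes fell and 13 rose between media, beside 15.1% and 18.1% of all genes.

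Over the 8 libraries the genes with a pattern most like that of *SUL1* were not sulfur genes. By Pearson correlation of log2(normalized count + 1), over libraries that share their medium and genotype in pairs, the 5 closest of all tested genes were *ADK2* (r = 0.990), *YME2* (0.989), *CLU1* (0.984), *MSS1* (0.983) and *PET112* (0.983). *ADK2* encodes an adenylate kinase of mitochondria, *YME2* a protein of the mitochondrial inner membrane, *CLU1* a protein needed for the normal distribution of mitochondria, *MSS1* an enzyme of mitochondrial tRNA modification and *PET112* a subunit of the mitochondrial amidotransferase that makes glutaminyl-tRNA. Among the other members the correlation with *SUL1* was highest in *MET10* (0.47) and *MET16* (0.15) and lowest in *CYS3* (-0.88), *MET3* (-0.86) and *CYS4* (-0.82). *MET3*, *MET14*, *MET17*, *CYS3* and *CYS4* correlated with each other at 0.91 to 0.98, as genes that were all lower in YPL.

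The 5 genes had smaller ranges than *SUL1*. *ADK2* had 1000 and 935 normalized counts in WT cells in YPD and 3071 and 3195 in YPL, and 897 and 912, then 1497 and 1825 in *pbp1Δ* cells. *PET112* had 1458 and 1303 in WT cells in YPD and 4100 and 4515 in YPL, and 1142 and 1120, then 1934 and 2027 in *pbp1Δ* cells. In both, the *pbp1Δ* libraries in YPL lay above all YPD libraries and below the WT libraries in YPL. The log2 difference between genotypes in YPL was -0.92 in *ADK2*, -1.12 in *PET112*, -0.57 in *YME2* and -0.43 in *CLU1* and *MSS1*, beside -1.82 in *SUL1*. They were chosen by their likeness over these libraries, so that these values carry no test.

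**Figure D5:**
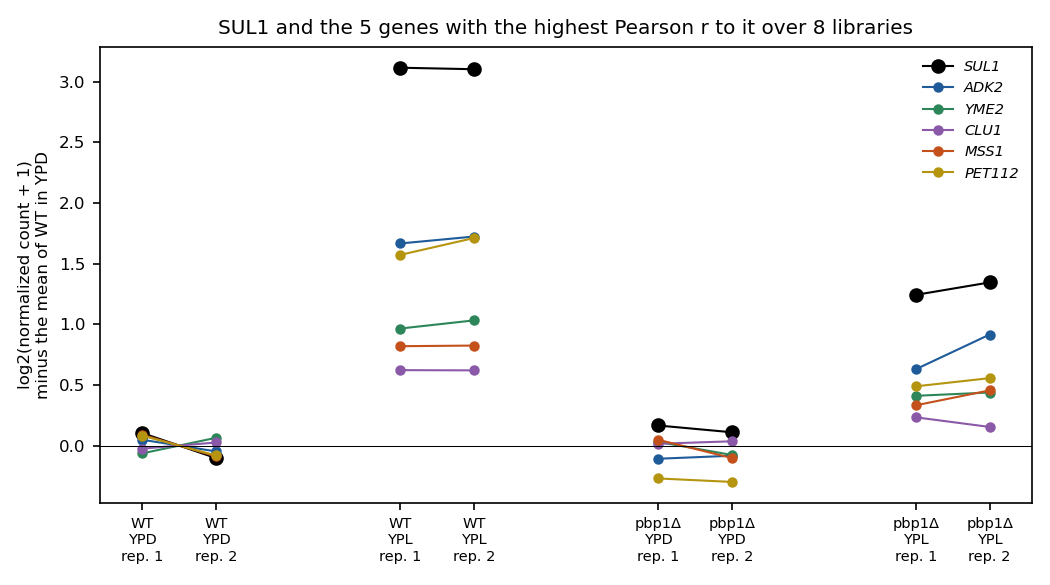
Log2(normalized count + 1) in each library minus the mean of the WT libraries in YPD, for *SUL1* and the 5 genes most like it, with each point a library and each line joining the replicates of a group. *SUL1* has the largest range, and in all 6 genes the *pbp1Δ* libraries in YPL lie between those in YPD and the WT libraries in YPL.

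Puf3, an RNA-binding protein with which Pbp1 has been associated, binds the element TGTANATA in mRNAs for mitochondrial proteins. A search on the gene strand within 200 bases after the stop codon found this element in 4 of the 5 genes most like *SUL1* (all but *ADK2*), in 1 of the 10 sulfur genes (*MET14*) and in 14.5% of 5768 genes. *SUL1* had none in this window. A stricter form with a C at 1 or 2 bases before the element, added after the values had been seen, was in the same 4 genes, in 0 of the 10 sulfur genes and in 5.999% of all genes. The element of *MET14* is shown beside those of *PET112* and *YME2*, with the match in capitals. Matches are given as a description of the sequence, and *MET14* differed between genotypes by -0.22 in YPL (95% interval -0.46 to 0.02).
MET14, chrXI:438720-438749, reverse strand: tatataaaagaTGTATATAtataatataga
PET112, chrII:73036-73065, reverse strand: taaacgccgcgTGTAAATAggaaccgtgca
YME2, chrXIII:870026-870055, reverse strand: ttctgcttttcTGTACATAtgtgtaaaccc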

How the data were processed

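Poly-A RNA of WT and *pbp1Δ* cells in YPD and YPL was sequenced in 8 libraries. According to the methods and processing notes, the authors trimmed reads, mapped them to the S288C genome with STAR 2.7.3a, kept uniquely mapped reads and counted them per gene with featureCounts (Subread 1.6.3, R64 annotation). The authors deposited normalized counts, here treated as a linear signal, and the processing notes name DESeq2. Trimming, mapping, counting and scaling are contained in this signal. Multi-mapping reads are therefore missing from genes with close copies, and the use of strand is not given in the sources used here. In each library 100% of values were whole multiples of a step at a tolerance of 0.05, which gave the read totals. Too few low values were there to recover counts with certainty. Count models were not fitted, and the raw read counts of the paper's supplement were not used.

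Genes had to reach a mean of 10 over all libraries, which 5759 did, all members among them, and 15 did not. They were fitted on the log2(normalized count + 1) scale by a linear model in limma 3.58.1 under R 4.3.3 that held all 4 groups and allowed a trend in the mean. Fold changes on this scale understate those of low genes. A call required an adjusted p (Benjamini-Hochberg, all tested genes) under 0.05 and a log2 fold change beyond 0.58 in size, whereas the interaction required the adjusted p only. Other tables used pandas 2.3.3 and numpy 2.4.6 in Python 3.11.15, and plots matplotlib 3.10.9. All 5774 identifiers matched the RefSeq annotation of the R64 assembly, from which positions and sequences were read. That assembly is of S288C, and neither the promoter sites nor the Puf3 elements were examined in CEN.PK. The labels call the replicates biological. The p-values rest on the spread between the 2 libraries of a group, pooled over the 4 groups and drawn towards the trend in the mean. Tests in YPD and in YPL therefore shared 1 estimate for each gene, although replicates lay further apart in YPD. With 2 against 2 an exact permutation test cannot reach the threshold.

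The members, the lists and the rule were chosen with earlier results of these data known. By this rule all 10 members were named, those of the 41 wider sulfur genes called in any comparison could be named, of which only some are, together with *MET5*, *MET2*, *MET6*, *MET4*, *MET32*, *CBF1* and *MET30*, and the 5 genes most correlated with *SUL1*. *VBA2* and *PCA1* were named for their position. Alternatives changed the pseudocount (0.5 and 8), the filter, the scaling, the trend, the block, the groups in the fit and the fold threshold, and left out each library.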

Additional observations from a re-analysis of the deposited data

Results flagged for a closer look

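The genotype difference of *SUL1* was not the same in the 2 media. The interaction, its log2 difference between *pbp1Δ* and WT in YPL minus that in YPD, was -1.95. In YPL both *pbp1Δ* libraries lay below both WT libraries, as for 30.1% of all genes. In YPD the *pbp1Δ* libraries (1071 and 1030) lay only just above those of WT (1025 and 889), as for 13.7% of all genes. The log2 difference there was 0.14 (SE 0.11). In limma *SUL1* was among the 4 genes called in the interaction, which is why it is listed here. *SUL1* was chosen for its genotype change in these libraries, so that this call is no independent test. Its values are given as a description.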

How the results depend on the processing

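For the 9 members other than *SUL1*, 0 were called between genotypes in YPL under every alternative run. With a replicate block within each medium, 2 of the 9 were called in YPD (*MET17*, adjusted p = 6.1e-04, and *STR3*, adjusted p = 0.0049) and 4 in the interaction (*MET3*, *MET10*, *MET17* and *STR3*, adjusted p = 0.015, 0.039, 0.032 and 0.035). That block called 4 wider genes in YPD and 3 in the interaction, and over all genes 214 in YPD, 503 in YPL and 360 in the interaction. Same-numbered libraries of the genotypes deviated together in YPD (correlation 0.85) and less in YPL (0.24), and across media their correlation was -0.22 to 0.01. The numbers were not taken to pair the libraries. A block over both media called 82 genes in YPD and changed no call of a count over the members.

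With each library centred on its median, 29 genes were called in YPD, 1 wider gene in YPL, and the medians of the 9 members between media were -1.001 in WT and -0.61 in *pbp1Δ* cells. Upper quartile scaling called 37 genes in YPD and 1 wider gene in YPL, with a median of 0.13 for the 9 members in YPL. It raised the share of higher among called genes in YPL from 11.1% to 23.9%, and the median of all genes to 0.10. Fits of only the 2 groups compared called 14 genes in YPD and 457 in YPL. Without a fold threshold 5 wider genes were called in YPL. At an absolute log2 fold change over 1, 26 genes were called in YPD, 151 in YPL, 1128 between media in WT and 1034 in *pbp1Δ* cells. Of the wider genes 0, 10 and 11 were then called in YPL and between media in WT and *pbp1Δ* cells, and of the 9 members 2 between media in *pbp1Δ* cells.

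Leaving out each library in turn gave 15 to 19 genes in YPD, 61 to 277 in YPL, 3 to 5 in the interaction, 1463 to 2232 between media in WT and 1620 to 2035 in *pbp1Δ* cells. Of the 9 members 0 to 1, 0, 0, 5 to 6 and 3 to 5 were called, with medians of -0.45 to -0.30, -0.04 to 0.11, 0.25 to 0.52, -0.93 to -0.82 and -0.53 to -0.42. Of the wider genes 0, 0 to 2, 0, 17 to 23 and 18 to 26 were called. A group with 1 library left was assumed to vary like the others. Over all alternatives, those of scaling among them, *SUL1* had -1.87 to -1.70 in YPL and -2.06 to -1.85 in the interaction. It was chosen for this change, so that these ranges are a description.

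Signs reversed only for values that were not called. Under scaling these were *MET10* between media in WT (-0.074 centred, -0.013 with the upper quartile) and *SUL2* between media in *pbp1Δ* cells (-0.067 centred). The other 23 reversals came from leaving out a library. Over the libraries left out, *SUL2* ranged from -0.453 to 0.158, -0.037 to 0.177, -0.088 to 0.523, -0.456 to 0.156 and -0.122 to 0.257 in YPD, in YPL, in the interaction and between media in WT and *pbp1Δ* cells. *MET16* ranged from -0.292 to 0.192, -0.177 to 0.114 and -0.324 to 0.160 in the last 3 of these, and *STR3* from -0.082 to 0.125 in YPL and -0.427 to 0.351 between media in *pbp1Δ* cells. *CYS4* ranged from -0.100 to 0.108 in YPL and *MET10* from -0.043 to 0.148 between media in WT cells. The cause was not tested. *MET14* between media in *pbp1Δ* cells missed the fold threshold with a pseudocount of 8 (-0.578). Tests with edgeR and DESeq2 were planned on reads recovered from the deposited normalized values. They were not run, because these hold too few low values to settle the recovery. The paper describes a supplementary spreadsheet of raw read counts, which was not used here.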
